A study of Mus musculus with 8 samples.

Results

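The 9 genes described here belong to the interferon response and to MHC class I antigen presentation: Ifitm3, Isg15, Ifit1, Ifit3, Irf7, Bst2, B2m, H2-D1 and H2-K1. They were picked by symbol from the 54232 genes of the count tables, and their levels were read in each library and in nuclei gated by marker genes as endothelial, microglia, astrocyte or fibroblast. The nuclei came from a cube of forebrain beside the lesion, taken from male Swiss Webster mice aged 10 weeks, and their RNA was counted by droplet single-nucleus sequencing from the 3′ end. Swiss Webster is an outbred stock. The mice had 1 of 4 kinds of surgery: control surgery, BCAS, TBI, or both (BCAS+TBI), with 2 libraries for each. TBI stands for traumatic brain injury; the labels give BCAS only as letters, in a study titled for cerebral hypoperfusion. Replicates are labelled as biological, but the number of mice behind a library and the time after surgery are not given in the sources used here, so every p-value measures the spread between these libraries.

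Interferons are secreted proteins that signal through JAK kinases and STAT factors, and the STAT complex enters the nucleus and turns on genes whose promoters carry an interferon-stimulated response element. Irf7 is a transcription factor that amplifies type I interferon production. Isg15 is a ubiquitin-like protein attached to other proteins, Ifit1 and Ifit3 bind viral RNA or each other, Ifitm3 blocks the fusion of viruses with cell membranes, and Bst2 (tetherin) holds virus particles at the cell surface. H2-D1 and H2-K1 are the heavy chains of classical mouse MHC class I molecules, which show peptides to CD8+ T cells, and B2m (beta-2 microglobulin) is the light chain that both need. In brain, endothelial cells and microglia are known to carry more MHC class I than neurons.

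On GRCm38, the submitters' build, the annotation places 9 of 9 as protein-coding genes. B2m lies at chr2:122147686-122153083, Isg15 at chr4:156199424-156200818, Ifitm3 at chr7:141009586-141010770 and Irf7 at chr7:141262706-141266481. Bst2 lies at chr8:71534255-71537456, H2-K1 at chr17:33996017-34000347, H2-D1 at chr17:35262730-35267499, Ifit3 at chr19:34583531-34588731 and Ifit1 at chr19:34640871-34650009. B2m overlaps Patl2 and Irf7 overlaps Phrf1, each on the opposite strand. H2-D1, H2-K1 and Ifit3 have near-identical relatives (other MHC class I genes, and Ifit3b), so how the counting split shared reads is uncertain for them.

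The core of the interferon-stimulated response element, GAAA followed by any 2 bases and GAAA again, was searched on both strands of the 300 promoter bases that RefSeq lists for each gene on GRCm38.p6 (250 before the start and 50 after). It was found in 6 of the 9 genes (66.67%), against 3.993% of 27025 genes and 3.443% of 32851 promoters of the same length. Of 31 other interferon-stimulated genes with a RefSeq promoter, 15 (48.39%) held it. Irf7, H2-K1 and H2-D1 had no match in these windows, and the 2 matches of Ifitm3 lie after the start. The H2-D1 window, chr17:35262844-35263143, lies wholly inside the gene as placed above, because RefSeq starts it later. The bases before that earlier start, 35262730, were not searched. The stretches around the matches before the start are shown because they hold the motif found in 5 of the members there. Each is written 5′ to 3′ in the direction of the gene, with the matches in capitals.
Isg15, chr4:156200855-156200916, minus strand, 3 overlapping matches: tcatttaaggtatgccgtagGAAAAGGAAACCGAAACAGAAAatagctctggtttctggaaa
Bst2, chr8:71537567-71537622, minus strand, 2 overlapping matches: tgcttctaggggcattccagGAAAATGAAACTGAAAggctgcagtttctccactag
B2m, chr2:122147528-122147577, plus strand, 1 match: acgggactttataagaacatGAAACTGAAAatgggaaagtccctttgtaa
Ifit3, chr19:34583353-34583436, plus strand, 2 matches on the opposite strand: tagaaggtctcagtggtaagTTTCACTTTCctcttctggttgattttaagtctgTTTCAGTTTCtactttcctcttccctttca
Ifit1, chr19:34640765-34640833, plus strand, 2 matches on the opposite strand: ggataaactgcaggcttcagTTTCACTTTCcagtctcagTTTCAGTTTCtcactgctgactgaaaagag
In Ifit1 and Ifit3 the matches read TTTCACTTTC and TTTCAGTTTC in the gene's direction, and in Isg15 and Bst2 they overlap in a run of GAAA repeats. A match describes these letters and was not tested as a binding site.

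Of 53390 barcodes, 48468 nuclei passed the filters. The gate, which asks for marker RNA of 1 class to dominate, named 1106 nuclei endothelial (62 to 210 a library), 464 microglia (47 to 73), 3355 astrocyte (256 to 572) and 90 fibroblast (4 to 17). The gated nuclei are shallow, with medians of 1034 UMIs (counted RNA molecules) in endothelial and 6171 in neuron nuclei. Clusters named by the same markers hold 1637 endothelial, 717 microglia, 3362 astrocyte and 1076 fibroblast nuclei. They were used as an alternative, and 99.91% of gated endothelial nuclei fall in the endothelial cluster. The clusters also take in nuclei that the gate left out, among them most of the fibroblast cluster. The endothelial cluster holds 1.747% of all UMIs, against 0.5025% in gated endothelial nuclei. Cldn5 stood at 1748 CPM (UMIs scaled to the same total in every class and library) in gated endothelial and 3.03 in neuron nuclei. Csf1r stood at 1558 in microglia and Aqp4 at 800 in astrocytes. The gate itself used these markers, so their levels follow from the gate and do not test the names. The endothelial cluster is led by haemoglobin genes (Hbb-bs, Hba-a1, Hbb-bt) beside Flt1 and Cldn5. The libraries fall into 2 sets by depth. Set 1 (control 1, BCAS 1, TBI 1, BCAS+TBI 2) held 28118725 to 33363564 UMIs and 0.807% to 1.38% mitochondrial UMIs; set 2 (control 2, BCAS 2, TBI 2, BCAS+TBI 1) held 42651388 to 56135192 and 0.400% to 0.593%. Each set has 1 library of each group. These sets were defined from the data and are not groups of the study. Any pair of libraries shared 4 to 15 nuclear barcodes.

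The endothelial nuclei held more of the RNA of the 9 genes than their share of all RNA. The endothelial cluster, with 3.377% of nuclei and 1.747% of UMIs, held 2018 of 2961 Ifitm3 UMIs (68.15%), 354 of 643 Isg15 UMIs (55.05%), 310 of 647 Bst2 UMIs (47.91%) and 88 of 204 Irf7 UMIs (43.14%). Its share was 39.46% for Ifit1, 36.6% for B2m, 35.21% for H2-K1, 32.39% for Ifit3 and 28.32% for H2-D1. Even the lowest share, that of H2-D1, was above the cluster's share of all UMIs. Neuron clusters, with 68.81% of all UMIs, held from 12.43% (Ifitm3) to 42.4% (H2-D1), so H2-D1 had more UMIs there than in the endothelial cluster. The gated endothelial nuclei hold only 0.5025% of UMIs, and from 8.52% (Ifit3) to 14.4% (Ifitm3) of the UMIs of each gene.

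Within the gate, Ifitm3 averaged 321 ± 162 CPM (SD, n = 8 libraries) in endothelial nuclei, 16.8 ± 16.6 in microglia, 12.7 ± 10.5 in astrocytes, 7.41 ± 5.55 in oligodendrocytes and 1.89 ± 1.63 in neurons. Endothelial nuclei were above microglia 19.1-fold and above neurons 170-fold, in 8 of 8 libraries (exact sign-flip permutation test over libraries, two-sided p = 0.00781, the smallest that 8 libraries can give; adjusted p = 0.00938 by Benjamini-Hochberg over 36 comparisons of endothelial nuclei with 4 other classes). Mural nuclei, the contractile cells of vessel walls, came next to endothelial nuclei. By clusters Ifitm3 averaged 92.4 ± 83.2 CPM in them and 371 ± 198 in endothelial nuclei, which were higher in 8 of 8 libraries. The 99 gated mural nuclei stood at 253 CPM pooled against 274 in endothelial nuclei. That mural value rests on 23 UMIs of Ifitm3, 12 of them in 1 library, with 2 libraries at 0. Microglia and astrocytes did not differ beyond their spread for Ifitm3 (exact permutation test, adjusted p = 0.510 over 36 comparisons of neighbouring classes). Neighbouring classes are those next to each other by mean CPM in these libraries, so the tested values themselves picked the pairs.

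Isg15 averaged 62.1 ± 33.1 CPM in endothelial nuclei, 1.98 ± 2.02 in astrocytes and 0.904 ± 0.435 in neurons (n = 8). It had no UMI in the 464 microglia nuclei, which allows a share of nuclei with a UMI of up to 0.647%, and Ifit1 and Ifit3 had none there either; in the microglia cluster Isg15 was seen in TBI 1 only, at 18.5 CPM. Ifit1 averaged 29.1 ± 19.4 CPM in endothelial, 0.784 ± 0.688 in astrocyte and 0.573 ± 0.409 in neuron nuclei. Ifit3, at 11.2 ± 9.62 in endothelial and 1.48 ± 1.71 in astrocyte nuclei, was higher in endothelial nuclei in 7 of 8 libraries. By clusters, Ifit3 averaged 10.64 ± 5.62 CPM in endothelial and 9.53 ± 8.33 in fibroblast nuclei, which did not differ beyond their spread (exact permutation test over libraries, adjusted p = 0.727 over 81 comparisons). Ifit1 averaged 23.5 ± 8.71 CPM in the endothelial and 10.66 ± 6.83 in the fibroblast cluster, higher in endothelial nuclei in 7 of 8 libraries. Irf7 averaged 19.0 ± 5.68 CPM in endothelial and 4.12 ± 8.33 in microglia nuclei. Its endothelial level ran from 11.0 to 29.1 among libraries, on 2 to 6 UMIs a library. In the deeper clusters Irf7 did not separate these classes: 15.4 CPM against 12.8, higher in 4 of 8 libraries (exact permutation p = 0.5625). Bst2 averaged 58.6 ± 38.5 CPM in endothelial nuclei and 9.0 ± 14.3 in microglia, higher in 7 of 8 libraries. By clusters, choroid plexus nuclei came next for Bst2, at 27.3 ± 16.4 CPM against 54.5 ± 35.3 in endothelial nuclei. Endothelial nuclei were higher there in 7 of 8 libraries.

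Of the classes given here, the MHC class I genes too averaged highest in endothelial nuclei. B2m averaged 285 ± 173 CPM in endothelial nuclei, 154 ± 56.0 in microglia, 30.9 ± 23.5 in astrocytes, 13.7 ± 6.35 in oligodendrocytes and 5.46 ± 2.80 in neurons (n = 8). The endothelial and microglia levels overlapped: endothelial nuclei were higher in 6 of 8 libraries, with an exact permutation p of 0.0469 by the gate (adjusted 0.0469 among endothelial comparisons and 0.0844 among neighbouring classes) and 0.156 by clusters. Microglia were above astrocytes in 8 of 8 libraries (exact permutation test, adjusted p = 0.0216). H2-K1 averaged 285 ± 179 CPM in endothelial nuclei, 78.1 ± 60.03 in microglia and 38.8 ± 19.8 in astrocytes, and the last 2 classes did not differ beyond their spread (exact permutation test, adjusted p = 0.107). H2-D1 averaged 550 ± 422 CPM in endothelial nuclei, 72.7 ± 51.7 in microglia, 29.8 ± 19.3 in astrocytes, 15.5 ± 10.8 in oligodendrocytes and 13.7 ± 5.17 in neurons, with the last pair indistinguishable (exact permutation test, adjusted p = 0.800).

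**Figure D1:**
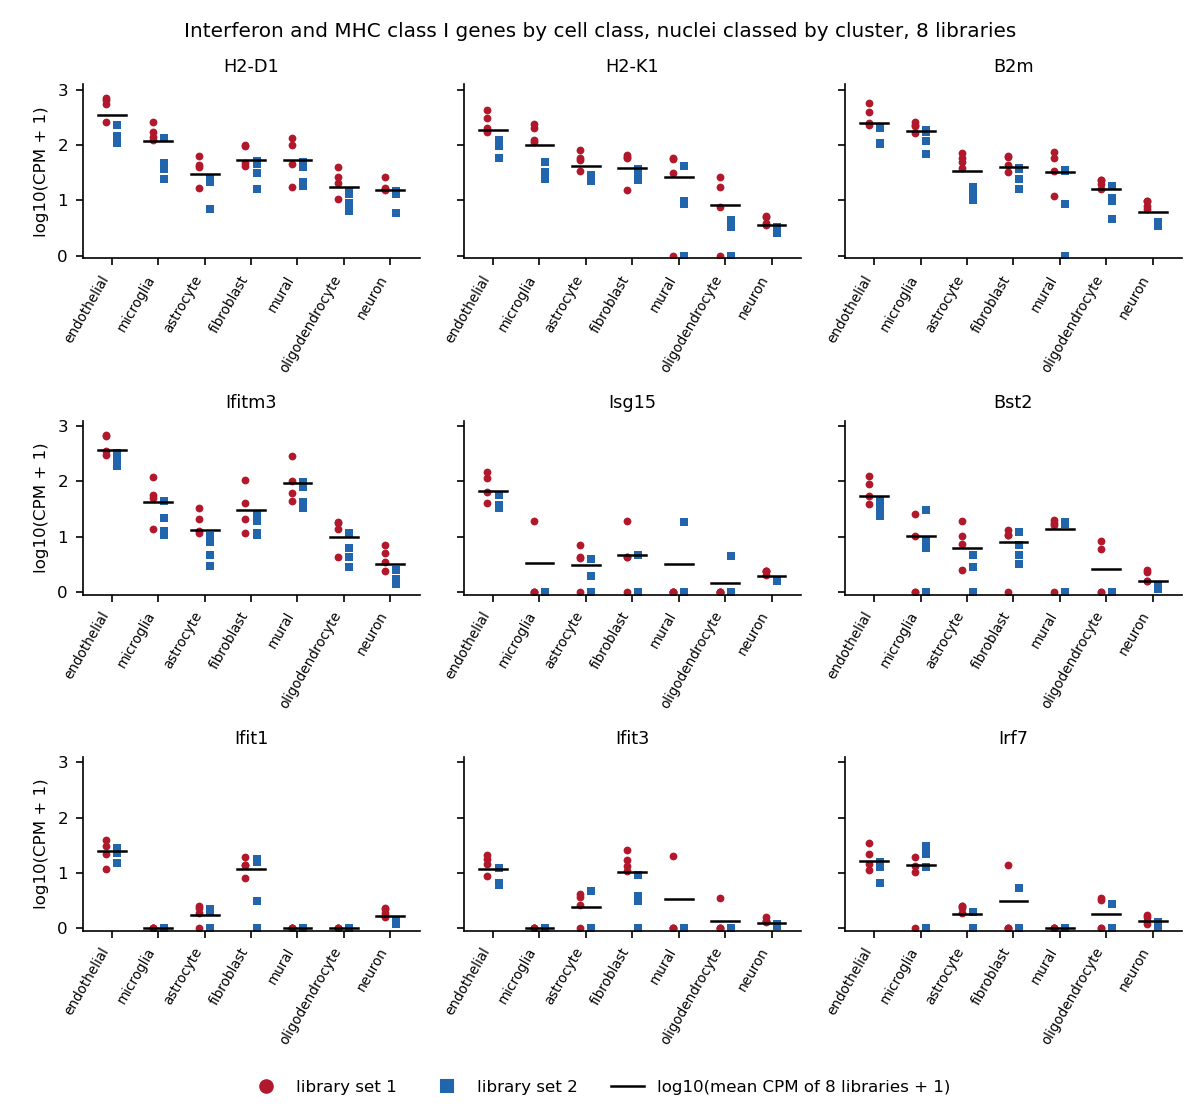
Level of each gene (log10 of CPM + 1, vertical axis) in endothelial, microglia, astrocyte, fibroblast, mural, oligodendrocyte and neuron clusters. Each point is 1 library, with a bar at the mean. Endothelial nuclei stand highest for most genes, while B2m points of endothelial and microglia nuclei overlap.

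The share of nuclei with a UMI was also compared at equal depth. Each nucleus was thinned to 500 UMIs, and neuron nuclei are given beside the other classes. Whether the neuron counts of these genes are free RNA or the neurons' own was not tested. H2-D1 was then seen in 17.6% of endothelial, 3.66% of microglia, 1.67% of astrocyte and 0.790% of neuron nuclei. Ifitm3 was seen in 7.32% of endothelial, 0.431% of microglia, 0.894% of astrocyte and 0.123% of neuron nuclei, and Isg15 in 1.63% of endothelial, 0.0298% of astrocyte and 0.0614% of neuron nuclei. Endothelial nuclei had the highest share for these 3 genes, while microglia and astrocytes for Ifitm3, and astrocytes and neurons for Isg15, stood in the opposite order to their CPM, and no order is read from them. Without thinning, H2-D1 was seen in 8.31% of neuron nuclei and 32.8% of endothelial nuclei, at median depths of 6171 and 1034 UMIs. After thinning, Isg15 was left in 1 of 3355 astrocyte and 14 of 22791 neuron nuclei, too few to set these classes apart. Whether the astrocyte counts of Isg15 are free RNA was not tested.

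Interferon-stimulated genes were found together in a minority of endothelial nuclei. Of 1106 gated endothelial nuclei, 1012 (91.5%) had no UMI of Isg15, Ifit1, Ifit3 or Irf7, 68 had 1 of these genes, 18 had 2, 7 had 3 and 1 had 4. Among the 56 nuclei with Isg15, 13 (23.21%) also had Irf7, against 8 of the 1050 without (0.762%). Ifit1 was present in 13 of the 56 (23.21%) against 2.29%, Bst2 in 15 (26.79%) against 4.19%, and Ifitm3 in 32 (57.14%) against 13.8%. Nuclei with Isg15 were also deeper, with a median of 2140 UMIs against 1010, and the part of depth in this was not tested. In the endothelial cluster, medians were 1103 UMIs in nuclei with none of the 4 genes, 4738 with 1, 8728 with 2 and 16700 with 3. The 9 nuclei with all 4 had a median of 14820. No doublet caller was run.

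The share of endothelial nuclei with any of these 4 genes ran from 6.02% in control 1 to 12.9% in BCAS 1 within the gate. In the cluster it ran from 8.20% in control 1 to 23.7% in TBI 1 and 21.6% in BCAS+TBI 2, with 15.9% in BCAS 1. There the set 2 libraries lay between 10.5% (TBI 2) and 15.9% (control 2), so in the cluster TBI libraries were the 2 highest in set 1 and the 2 lowest in set 2. Within the gate they were again the lowest in set 2 (TBI 2 7.14%, BCAS+TBI 1 7.35%). In set 1, however, BCAS 1 lay above TBI 1 (12.1%) and BCAS+TBI 2 (8.82%). Nuclei were not thinned to equal depth for these shares.

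The next question is how these levels stood after TBI and BCAS surgery. In endothelial nuclei, H2-D1 stood at 851, 368.5, 1090 and 1181 CPM in control 1, BCAS 1, TBI 1 and BCAS+TBI 2, the libraries of set 1. It stood at 321, 148, 199 and 237 CPM in control 2, BCAS 2, TBI 2 and BCAS+TBI 1, those of set 2. Within set 1 both TBI libraries lay above both others; within set 2 control 2 was the highest. H2-K1 stood at 327.5, 234.5, 489.5 and 608 CPM in control 1, BCAS 1, TBI 1 and BCAS+TBI 2, and at 195, 94.2, 173 and 160 in control 2, BCAS 2, TBI 2 and BCAS+TBI 1. As for H2-D1, both TBI libraries were the highest of set 1 and control 2 the highest of set 2, but BCAS+TBI 1 lay below TBI 2. B2m stood at 311, 424, 507 and 491 in control 1, BCAS 1, TBI 1 and BCAS+TBI 2, and at 221, 114, 117 and 93.8 in control 2, BCAS 2, TBI 2 and BCAS+TBI 1, so the BCAS+TBI library was the lowest of set 2.

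Of the antiviral effectors, Ifitm3 stood at 262, 480, 478 and 562 CPM in control 1, BCAS 1, TBI 1 and BCAS+TBI 2, and at 280, 148, 199 and 160 in control 2, BCAS 2, TBI 2 and BCAS+TBI 1. Libraries with and without TBI overlapped within both sets, whereas those with BCAS lay above those without in set 1 and below them in set 2. Bst2 stood at 32.75, 78.2, 111 and 117 CPM in the set 1 libraries in the same order, and at 41.3, 40.4, 15.04 and 33.1 in those of set 2; the TBI libraries were the highest of set 1 and the lowest of set 2. Isg15 stood at 49.1, 100.5, 81.6 and 117 in set 1 and at 41.3, 43.7, 30.1 and 33.1 in set 2. These levels rest on few molecules: Isg15 had 6 to 14 UMIs a library and Bst2 4 to 19. Ifit1 (1 to 12 UMIs), Irf7 (2 to 6) and Ifit3 (0 to 5) were below the count filter in gated endothelial nuclei and were not tested there. Their levels ran from 11.7 to 69.9 CPM, 11.0 to 29.1 and 0 to 24.6, with the surgeries overlapping across the 8 libraries.

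**Figure D2:**
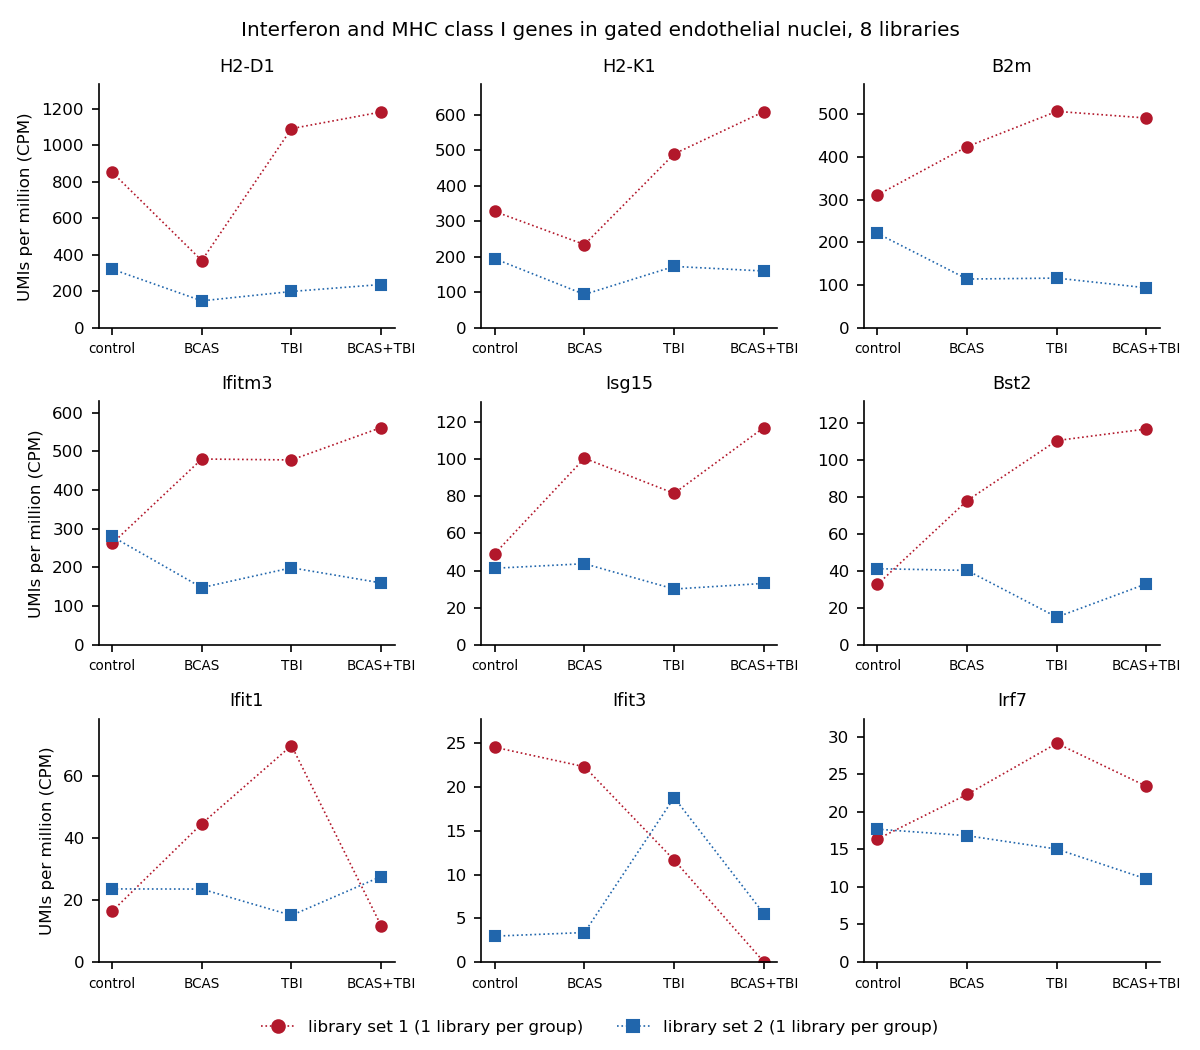
CPM of each gene in gated endothelial nuclei (vertical axis, from 0) by surgery group, 1 point per library, with circles for set 1, squares for set 2 and dotted lines joining the libraries of 1 set. For H2-D1, H2-K1 and B2m the 4 set 1 libraries lie above the 4 set 2 libraries.

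Libraries with TBI surgery (TBI and BCAS+TBI) were compared with those without by edgeR's quasi-likelihood test. The filter left 11 pairs of class and gene: 6 genes in endothelial nuclei, Ifitm3, B2m, H2-D1 and H2-K1 in astrocytes, B2m in microglia, and none in fibroblasts. None of the 11 passed at an adjusted p under 0.05 (0.0% of 18256 pairs did), and none had an unadjusted p under 0.05 (1.28% of pairs did). DESeq2 also called 0 of 11. Fitted values were higher with TBI for 11 of 11, with a median log2 difference of 0.53, while 52.57% of the 18256 pairs were higher, with a median of 0.02. In none of the 11 did the 4 libraries with TBI lie all above those without (0.734% of pairs) or all below (0.953%). The pairs share libraries and are not independent. Without TBI 1, 6 of 11 were higher (median 0.02); without BCAS+TBI 2, 7 of 11; and without BCAS 2, 8 of 11.

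In endothelial nuclei, H2-D1 was 0.90 higher on the log2 scale (SE 0.66) and H2-K1 0.88 (SE 0.53), each with an adjusted p of 1 in edgeR's test. Levels with and without TBI were 677 ± 531 and 422 ± 301 CPM for H2-D1, and 358 ± 226 and 213 ± 96.7 for H2-K1 (SD, n = 4 libraries each). The log2 differences were 0.53 (SE 0.66) for Bst2, 0.33 (SE 0.51) for Ifitm3, 0.25 (SE 0.63) for B2m and 0.22 (SE 0.55) for Isg15. Each was within about 1 SE of 0. With the library set as a block, H2-K1 gave 0.69 (SE 0.23) and H2-D1 0.58 (SE 0.23), with adjusted p of 0.894 and 1.00 in edgeR's test, while B2m gave -0.02. With this block, 5 of the 11 pairs had an unadjusted p under 0.05 (4.67% of all pairs did) and none passed after adjustment (0.0548% did).

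Astrocyte Ifitm3 had the largest fitted difference of the 11 gated pairs. It stood at 12.96, 11.2, 33.4 and 22.4 CPM in control 1, BCAS 1, TBI 1 and BCAS+TBI 2, and at 1.70, 3.31, 9.06 and 7.63 in control 2, BCAS 2, TBI 2 and BCAS+TBI 1. Within each set, both TBI libraries lay above both others. These are sums of 2 to 42 UMIs a library, 42 of them in TBI 1. The log2 difference was 1.47 (SE 0.69; edgeR unadjusted p = 0.0624, adjusted p = 1), and 1.36 (SE 0.35; unadjusted p = 0.000882, adjusted p = 0.383) with the library set as a block. Across the 16 fits that left out 1 library, with and without the block, it stayed between 0.78 and 2.38.

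Astrocyte H2-K1 stood at 50.4, 32.45, 77.1 and 53.8 CPM in control 1, BCAS 1, TBI 1 and BCAS+TBI 2, and at 23.8, 21.5, 25.4 and 26.2 in control 2, BCAS 2, TBI 2 and BCAS+TBI 1. It too was higher with TBI within each set, by little in set 2; its log2 difference was 0.59 (SE 0.42). These 2 of 11 pairs were the ones above in both sets, as were 2.77% of all pairs. Astrocyte H2-D1 stood at 43.2, 13.7, 61.2 and 49.3 in set 1 and at 5.09, 23.99, 23.6 and 18.5 in set 2, with a log2 difference of 0.91 (SE 0.60). Astrocyte B2m stood at 37.4, 44.9, 68.4 and 53.8 in set 1 and at 10.2, 16.55, 7.25 and 8.72 in set 2, with 0.47 (SE 0.72), and turned to -0.78 without TBI 1. Bst2 (0 to 17.5 CPM) was below the filter in astrocytes, and its highest value was again in TBI 1.

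RNA of other cells also differed between libraries. Haemoglobin and other erythroid RNA in gated endothelial nuclei was 39990, 56920 and 50170 CPM in BCAS 1, TBI 1 and BCAS+TBI 2, against 1163 in control 1 and 502 to 4019 in set 2. In astrocytes it was 1845 in TBI 1 and 29.4 to 237 elsewhere. T or NK cell markers gave 13 UMIs in the endothelial nuclei of TBI 1 and 0 to 3 in the other libraries, with 5 of 8 markers seen over the 8 libraries. Neutrophil or monocyte markers gave 25 there in BCAS+TBI 2 and 0 or 1 elsewhere, with 3 of 8 markers seen. No nucleus was gated as a T, B, neutrophil or monocyte cell. The part of these cells in the levels of the 9 genes was not tested.

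In microglia, the resident immune cells of the brain, B2m stood at 154.5, 219, 216 and 180.5 CPM in control 1, BCAS 1, TBI 1 and BCAS+TBI 2, and at 104.5, 51.1, 145 and 163 in control 2, BCAS 2, TBI 2 and BCAS+TBI 1. Libraries with and without TBI overlapped in set 1 and did not in set 2, where both with TBI were higher. The log2 difference with TBI was 0.53 (SE 0.44; adjusted p = 1 in edgeR's test). H2-K1 ran from 109.5 to 180.5 CPM in set 1 and from 16.1 to 40.9 in set 2, so its set 1 libraries lay above those of set 2. H2-D1 overlapped between the sets, at 36.1 to 159 and 11.6 to 113. Ifitm3 was 0 to 36.5 CPM, from 9 UMIs in all. Within the microglia cluster, B2m was 163, 225, 228 and 267 in set 1 and 117, 68.3, 190 and 173 in set 2, where both TBI libraries lay above both others in each set, with a log2 difference of 0.72 (SE 0.37).

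Fibroblast nuclei, which in brain line the meninges and vessels, were too few in the gate to test: in its 90 nuclei Isg15, Ifit1, Ifit3 and Irf7 had no UMI, and B2m ran from 0 in 4 libraries to 223 CPM in TBI 1. Fibroblasts were read in the clusters instead, most of whose 1076 nuclei the gate had not named fibroblast. There Ifitm3 stood at 19.6, 10.7, 105 and 40.2 CPM in control 1, BCAS 1, TBI 1 and BCAS+TBI 2, and at 9.80, 10.7, 24.1 and 18.5 in control 2, BCAS 2, TBI 2 and BCAS+TBI 1. The 4 libraries with TBI surgery averaged 47.1 ± 40.0 CPM and those without 12.7 ± 4.64 (SD, n = 4 each), with control 1 above BCAS+TBI 1. The log2 difference was 1.82 (SE 0.57; edgeR unadjusted p = 0.00743, adjusted p = 1), and 1.60 (SE 0.42; adjusted p = 0.651) with the set as a block. B2m stood at 42.5, 32.1, 60.7 and 61.8 in set 1 and at 23.8, 14.95, 36.2 and 37.0 in set 2, again higher with TBI within each set, with 0.89 (SE 0.37; unadjusted p = 0.0339, adjusted p = 1). H2-K1, at 58.9, 14.3, 60.7 and 64.9 and at 22.4, 23.5, 36.2 and 25.9, gave 0.79 (SE 0.43). H2-D1, at 94.9, 46.4, 99.0 and 40.2 in set 1 and at 15.4, 29.9, 44.2 and 51.8 in set 2, overlapped between libraries with and without TBI in set 1 and was higher with TBI in set 2.

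By clusters, 20 pairs of class and gene could be tested. None passed after adjustment (0.0% of 31895 pairs), and 2, fibroblast Ifitm3 and B2m, had an unadjusted p under 0.05 (1.83% of pairs did). With the set as a block, 10 of 20 did (4.87% of pairs) and none passed after adjustment (0.0376%). Libraries with TBI lay above those without in both sets for 5 of 20 pairs (2.49% of all pairs): Ifitm3 in astrocytes and fibroblasts, B2m in fibroblasts and microglia, and H2-K1 in fibroblasts. In the endothelial cluster, Isg15 stood at 40.3, 62.2, 113 and 149 CPM in set 1 and at 55.5, 36.2, 32.2 and 35.0 in set 2, so it was higher with TBI in set 1 and lower in set 2.

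**Figure D3:**
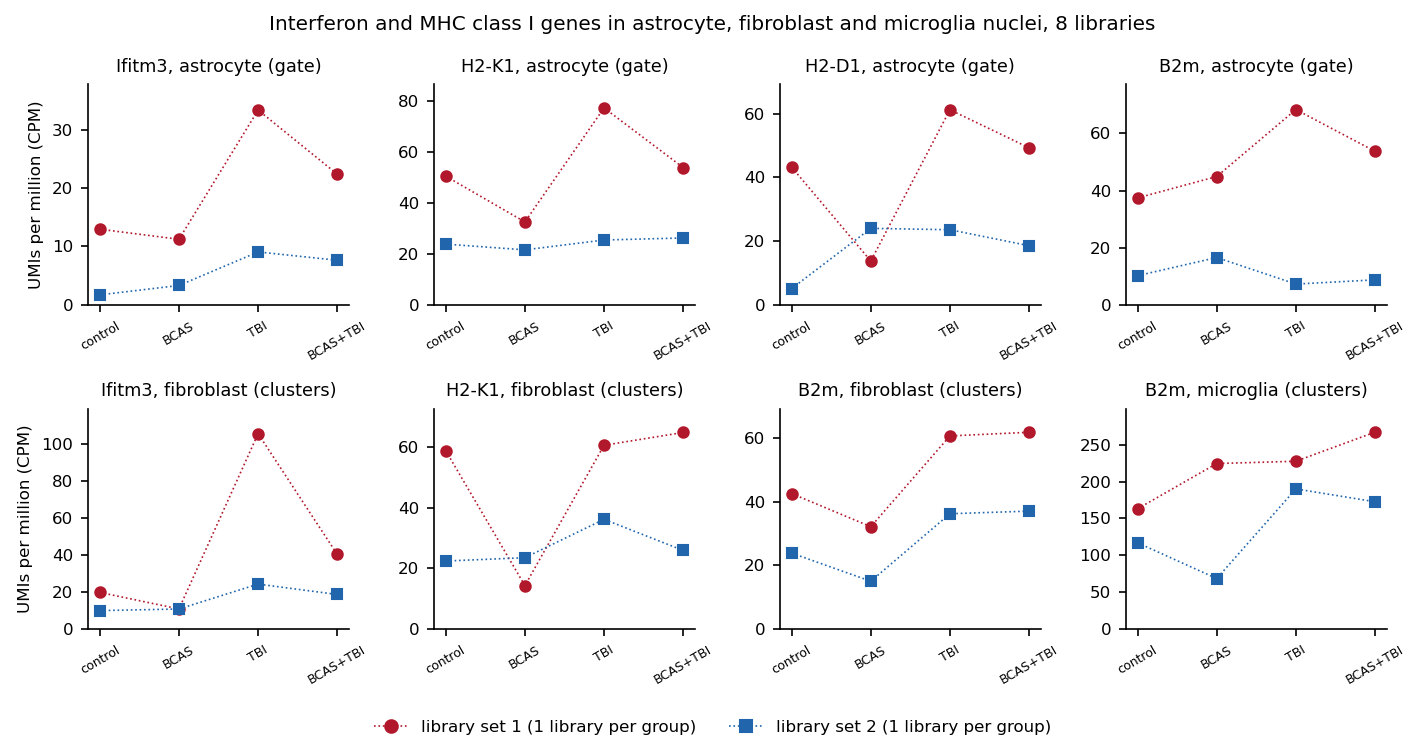
CPM (vertical axis, from 0) by surgery group for genes of gated astrocytes and of fibroblast and microglia clusters, 1 point per library, with circles for set 1 and squares for set 2. Astrocyte and fibroblast Ifitm3 are highest in TBI 1, at 33.4 and 105 CPM.

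Summed over all nuclei, 9 of 9 genes could be tested and none passed for TBI in edgeR's test (0.0% of 24312 genes did), with none at an unadjusted p under 0.05 (0.3% of genes) and none by DESeq2. All 9 were higher with TBI in the fit, by a median of 0.53 on the log2 scale, where 48.01% of genes were higher; without TBI 1, 4 of 9 were. Bst2 stood at 1.55, 1.96, 7.31 and 4.63 CPM in control 1, BCAS 1, TBI 1 and BCAS+TBI 2 and at 1.55, 1.02, 0.640 and 0.856 in control 2, BCAS 2, TBI 2 and BCAS+TBI 1. Ifitm3 stood at 8.16, 6.97, 31.6 and 18.3 CPM in set 1 and at 8.64, 4.55, 4.84 and 3.92 in set 2. For both genes the TBI libraries were the highest of set 1 and not of set 2. A sum over all nuclei cannot tell more cells of a type from more RNA per cell.

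**Figure D4:**
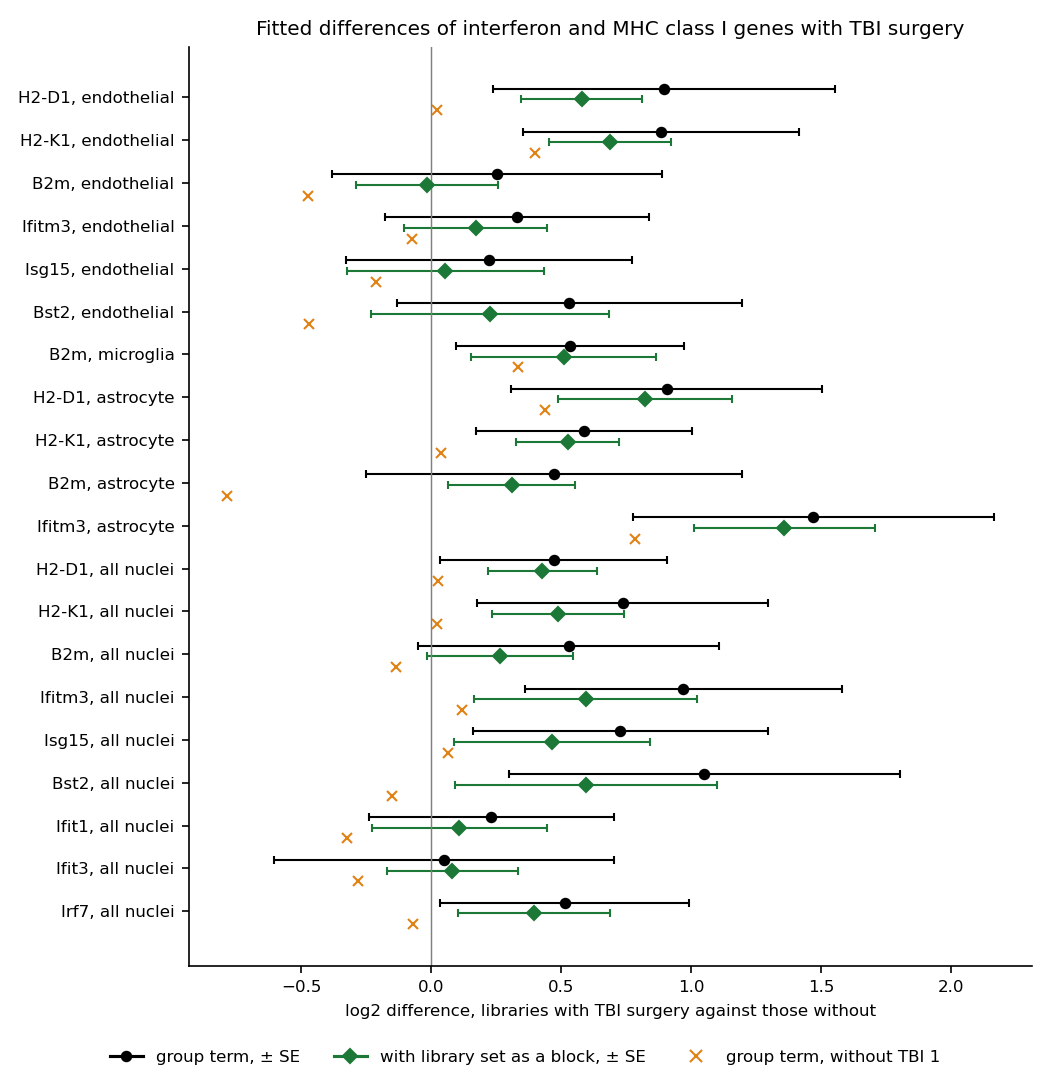
Fitted log2 difference of libraries with TBI surgery against those without (horizontal axis) for each tested gene and class, with bars of 1 SE, for the fit by group, the fit with the library set as a block, and the fit without TBI 1. Points of the fit by group lie above 0 for 11 of 11 gated pairs, and those without TBI 1 lie on both sides of 0.

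BCAS surgery showed no shared direction in the gated classes. With BCAS averaged over TBI, 3 of 11 pairs were higher and 8 lower, from -0.54 to 0.45 on the log2 scale, and none was called (0.0% of pairs) or had an unadjusted p under 0.05 (0.838% did) by edgeR, nor was any called by DESeq2. In none did the 4 BCAS libraries lie all above (0.581% of pairs) or all below (0.783%) the others, nor in both sets above (2.13%) or below (2.63%). Summed over all nuclei, 9 of 9 were lower, from -0.62 (Ifitm3) to -0.05 (B2m), where 54.5% of genes were higher, but without TBI 1 the direction turned for 8 of 9 (6 of 9 with the set as a block); none was called (0.0%) or had an unadjusted p under 0.05 (0.292%). BCAS+TBI was also compared with TBI alone, the contrast of the series' title. There 5 of 11 pairs were higher and 6 lower, from -0.63 (astrocyte Ifitm3) to 0.30 (endothelial Isg15), with none called (0.0% of pairs) and none at an unadjusted p under 0.05 (1.18%). Over all nuclei 9 of 9 were lower, from -0.98 (Ifit3) to -0.07 (B2m), with none called (0.0%) or at an unadjusted p under 0.05 (0.259%). Without TBI 1 the direction turned for 8 of these 9, with and without the set as a block, and without BCAS+TBI 1 for 5 of 9. This contrast shares the TBI and BCAS+TBI libraries with the comparisons above.

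The interaction asks whether the BCAS difference depends on TBI. None of 11 pairs was called by edgeR (0.0% of pairs) or DESeq2, or had an unadjusted p under 0.05 (1.18%), nor did any of the 9 genes over all nuclei (0.0% called, 0.226% at an unadjusted p under 0.05). Endothelial H2-D1 had the largest value: BCAS libraries were below control in both sets (368.5 against 851, and 148 against 321 CPM), whereas BCAS+TBI libraries were above TBI in both (1181 against 1090, and 237 against 199). The interaction was 1.27 (SE 1.31; adjusted p = 1.00 in edgeR's test), and 1.25 (SE 0.46; unadjusted p = 0.0151, adjusted p = 0.960) with the set as a block. Endothelial H2-K1 gave 0.85 (SE 1.06), and B2m -0.17 (SE 1.27).

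The split between library sets was wider than that between surgeries for several genes. In endothelial nuclei, Isg15, B2m, H2-D1 and H2-K1 were higher in each of the 4 set 1 libraries than in any of set 2 (4 of 6 genes, against 9.56% of genes tested there). In astrocytes this held for Ifitm3, B2m and H2-K1 (3 of 4, against 15.3%), in microglia for 0 of 1 tested (7.05%), and over all nuclei for 6 of 9 (40.6%). The sets differ in depth and mitochondrial share, and what sets them apart was not tested.

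Other genes of the pathway were read from lists by role. Interferon genes themselves were at 0 UMIs in the 4 classes for 10 of 11; Ifnk had 20 UMIs. Among receptors and signalling genes, Ifnar2, a chain of the type I interferon receptor, averaged 245 ± 64.1 CPM in endothelial, 137 ± 68.3 in microglia and 29.8 ± 8.84 in astrocyte nuclei. Ifngr1, of the type II receptor, was highest in microglia (330 ± 112, against 54.4 ± 21.5 in endothelial nuclei), as was the kinase gene Jak1 (247 ± 68.5 against 93.3 ± 30.4). Of the sensors, Tlr7, an endosomal receptor for single-stranded RNA, averaged 234 ± 74.0 CPM in microglia and 0 in endothelial nuclei. Of the other interferon-stimulated genes, Sp100, a nuclear body protein, averaged 254 ± 73.8 CPM in endothelial nuclei, 14.9 ± 12.9 in microglia and 1.55 ± 2.01 in astrocytes. Parp14 averaged 96.3 ± 34.2, 65.2 ± 42.5 and 2.49 ± 2.08. Among other MHC class I and related genes, H2-T23 averaged 88.4 ± 61.7 CPM in endothelial and 37.0 ± 29.1 in microglia nuclei, and Fcgrt, which encodes the neonatal Fc receptor, 198 ± 64.0 and 18.6 ± 18.9.

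None of these listed genes passed the test for TBI. Of 40 other interferon-stimulated genes, 15 were tested in endothelial nuclei, with 10 higher and 5 lower (median log2 difference 0.05), and 11 in astrocytes, with 10 higher and 1 lower (median 0.28), where the medians of all genes tested were 0.02 and 0.01. Of 14 antigen processing genes, 11 were tested in endothelial nuclei (5 higher, 6 lower, median -0.12) and 9 in astrocytes (7 higher, 2 lower, median 0.18). Of 10 receptor and signalling genes, 8 were tested in endothelial nuclei (5 higher, 3 lower) and 10 in astrocytes (7 higher, 3 lower). The other MHC class I genes were 2 higher and 2 lower in endothelial nuclei and 2 of 2 lower in astrocytes.

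Genes with a similar profile over 8 gated classes were sought for members with at least 500 UMIs, by Pearson correlation of log2(mean CPM + 10) across classes. For Ifitm3 the closest of 16906 genes were Tm4sf1 (r = 0.984), Rps28 (0.983) and Fzd6 (0.983). Gbe1, Atox1 and Notch4 were closest to Bst2 (r from 0.979 to 0.981). Snx3, Trim25 and Gbe1 were closest to H2-D1 (0.975 to 0.980), and Cebpd, Fmo5 and Gpr146 to H2-K1 (0.957 to 0.984). With 8 classes drawn from the same libraries, these values are a description.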

How the data were processed

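Raw UMI counts per gene and nucleus, deposited by the authors, were used; per the file headers they were made with Cell Ranger 7.0.0, and the submitters' processing notes name GRCm38, mm10 and Seurat. The filters asked for at least 500 UMIs and 300 genes a nucleus and no more than 5% of UMIs from mitochondria. A nucleus was gated to a class with at least 3 UMIs from at least 2 of its markers, making up at least 75% of its marker UMIs; no doublet caller was run, and leaving out nuclei above 3 times their class's median UMIs was an alternative. Clusters (scanpy 1.11.5, igraph 0.11.9) were named by the same markers, apart from neuron clusters. Those were named by exclusion: no other class's markers stood out, and their median UMIs were not far below that of all nuclei. Counts were summed per library and class, expressed as CPM of the class sum, and tested with edgeR 4.0.16 (quasi-likelihood, TMM, minimum count of 10; R 4.3.3), with Benjamini-Hochberg adjustment over all pairs of class and gene; DESeq2 1.42.0 was an alternative. Sums over all nuclei were fitted separately. The fitting was run on simulated counts that held no difference between library sets, and its outcome is not given here. That run cannot show how the fit by group behaves where the sets differ. Intervals and limits for a count of 0 (3 counts) cover counting error only.

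The replicate numbers do not pair the libraries: deviations of same-numbered libraries correlated at 0.77 to 0.88 among control, BCAS and TBI, and at -0.92 to -0.83 with BCAS+TBI. The genes, lists and markers were chosen with earlier results of these data known. Members are given in full; of the other lists, genes past the threshold and up to 3 a list with the highest mean CPM over the 4 classes are named, plus the 3 genes most like a member with at least 500 UMIs; those for Isg15 and B2m are not reported here.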

Additional observations from a re-analysis of the deposited data

How the results depend on the processing

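No member was called under any alternative. The counts over all pairs of class and gene, 0 in the fit by group, became 10 (TBI), 5 (BCAS+TBI against TBI) and 5 (interaction) with the library set as a block, 12, 5 (BCAS), 6 and 9 without the filter on low counts, and 12 (TBI), 1 (BCAS) and 2 (interaction) with clusters and the set block, an alternative chosen after seeing the data. Leaving out 1 library, with or without the set block (the latter also chosen after seeing the data), gave 0 to 25 calls for TBI, 0 to 7 for BCAS, 0 to 10 for BCAS+TBI against TBI and 0 to 13 for the interaction. Over all nuclei, DESeq2 called 1 gene for BCAS, and leaving out 1 library gave 0 to 283, 0 to 166, 0 to 259 and 0 to 46 in the same order, each highest without TBI 1 with the set block. With the replicate block, 0 pairs were called for TBI (194 at an unadjusted p under 0.05); endothelial H2-D1's interaction was then 1.82. The cause was not tested.

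Directions for TBI were less firm. With the set block endothelial B2m turned to -0.015. Leaving out 1 library, log2 differences ran, in endothelial nuclei, from -0.54 to 0.83 for B2m, -0.47 to 0.97 for Bst2, -0.24 to 0.84 for Ifitm3 and -0.29 to 0.63 for Isg15; in astrocytes, from -0.78 to 1.02 for B2m; over all nuclei, from -0.14 to 0.89 for B2m, -0.15 to 1.496 for Bst2, -0.33 to 0.58 for Ifit1, -0.49 to 0.69 for Ifit3, -0.072 to 0.86 for Irf7 and -0.0028 to 1.09 for Isg15. H2-D1, H2-K1 and astrocyte Ifitm3 stayed above 0 in these fits, down to 0.02 (endothelial H2-D1 without TBI 1), 0.02 (H2-K1 over all nuclei without TBI 1) and 0.78. Normalization (RLE), other gates, DESeq2, the replicate block and filters kept 11 of 11 gated pairs, or those still testable, above 0. With 62 to 210 endothelial nuclei a library, genes of few UMIs were limited by depth.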

Other observations

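Cxcl10, an interferon-induced chemokine and the listed gene with the largest fitted difference among those called under an alternative, was chosen after its values were seen. In gated astrocytes it had 48 UMIs in TBI 1 (38.2 CPM), 17 in BCAS+TBI 2 (25.4 CPM), 0 in TBI 2 and BCAS+TBI 1, and 0, 1, 0 and 3 in control 1, BCAS 1, control 2 and BCAS 2. Its log2 difference with TBI passed edgeR's test without the filter on low counts (4.89, SE 0.73, adjusted p = 3.02e-07) and, with the library set as a block, without BCAS 2, TBI 2 or BCAS+TBI 1 (adjusted p from 0.00472 to 0.0318), but not in the fit by group. Both libraries with more than 3 UMIs are of set 1. Tlr3, a sensor of double-stranded RNA, was the other listed gene called under an alternative: over all nuclei, 1.27 higher (SE 0.21, adjusted p = 0.0340 in edgeR's test) in BCAS+TBI than in TBI with the set block and without TBI 1.

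The ratio of H2-D1 to H2-K1 UMIs differed between neurons, endothelial nuclei and astrocytes in the same order in 8 of 8 libraries. This pattern was noticed after the values were seen. It ran from 3.175 to 8.917 in neurons (median 5.535), from 1.152 to 2.6 in endothelial nuclei (median 1.611) and from 0.2143 to 1.115 in astrocytes (median 0.8255). Other classes were not compared by library. Summed over libraries, gated oligodendrocytes held 53 UMIs of H2-D1 and 23 of H2-K1, microglia 42 and 41, and endothelial nuclei 674 and 366. The ratio compares a pair of genes within a library and sets no level. Reads shared with other MHC class I genes were not examined.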
